A study of Mus musculus with 4 samples.

Results

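The 2332 regions described here carried a PU.1 peak in B cells that lack miR-155 and no called peak in wild-type or PU.1 knock-in B cells. Overlapping peaks of the 3 deposited lists (at least 1 bp) were joined into regions on chromosomes 1 to 19, and a region was chosen by its absence from the wild-type and knock-in lists. They were 2332 of 4676 regions in the series and 57.0% of the 4094 regions with a knockout peak (exact 95% interval 55.4 to 58.5). Intervals of this kind cover counting error over regions only, not the spread between mice or libraries. PU.1 binding was measured by ChIP-seq, in which DNA bound by a protein is immunoprecipitated and sequenced, in B cells from mouse spleen. There were 3 genotypes: wild type, the knock-in written PU.1[155-/155-], and the knockout written miR-155[-/-]. All cells were isolated by negative selection and cultured for 96 h, activated by interleukin-4 (10 ng/ml) together with lipopolysaccharide (5 ug/ml). Each genotype was 1 library, called a mix in its title without a statement of what was mixed, and an input DNA sample was not analysed here. Differences between genotypes therefore have no replicate check, and none was tested.

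PU.1, encoded by Spi1, is a transcription factor of the ETS family that binds purine-rich DNA around a GGAA core, and in B cells it acts with partner factors at many enhancers. MicroRNAs guide silencing complexes to messenger RNAs mainly through pairing of their seed, and the messenger RNA of PU.1 is a known target of miR-155 in activated B cells. The knockout removes the microRNA from all of its targets, whereas the knock-in changes the site in the PU.1 gene alone. A region found in the knockout and in neither other list thus has no called peak in the genotype in which PU.1 alone escapes the microRNA. This does not show that the site is unbound there, and a part of other miR-155 targets was not tested. The 5p strand of miR-155, a mature strand that the knockout lacks, is shown because the comparison rests on loss of the microRNA. It is taken from RefSeq (build GRCm38.p6, chromosome 16 from 84714143 to 84714165, plus strand), with the seed, bases 2 to 8, in capitals:
mmu-miR-155-5p: uUAAUGCUaauugugauaggggu

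All 2332 regions held a single knockout peak. Together they spanned 675.4 kb, or 53.8% of the 1255 kb under knockout peaks on these chromosomes. Against the wild-type list alone 74.5% of knockout regions had no counterpart, and against the knock-in list alone 62.6%. In the deposited lists, regions found in 1 genotype only made up 24.8% of knock-in regions (512, exact interval 23.0 to 26.8) and 4.49% of wild-type regions (50, 3.35 to 5.87). The lists differ in length, with 4094 knockout, 2063 knock-in and 1114 wild-type peaks on chromosomes 1 to 19. With each list held to its 1114 highest-scoring peaks, the knockout had 265 regions that overlapped no other kept peak (23.8%, 21.3 to 26.4). The knock-in then had 307 (27.6%, 24.95 to 30.3) and the wild type 277 (24.9%, 22.4 to 27.5). The wild-type list was whole here, and the lowest scores kept were 131.91 for knockout, 70.49 for knock-in and 50 for wild type. Of the 265 knockout regions, 172 were knockout-only as deposited. Most of the 277 wild-type regions overlapped a deposited peak that was left out, as only 50 were unshared in the deposited lists. At equal length the 3 intervals overlapped, and the knockout no longer had the largest share of regions without a counterpart among the peaks kept. When instead the higher-scoring 50% of each list was kept, 1104 knockout regions stood alone (53.9%, 51.7 to 56.1). The lists kept their unequal lengths in that setting. Of the 1104, 684 were knockout-only in the deposited lists, and the others overlapped a deposited wild-type or knock-in peak left out here. Against the full wild-type and knock-in lists, the knockout-only share of the higher-scoring 50% of knockout regions was 33.4% (684 of 2047).

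**Figure D1:**
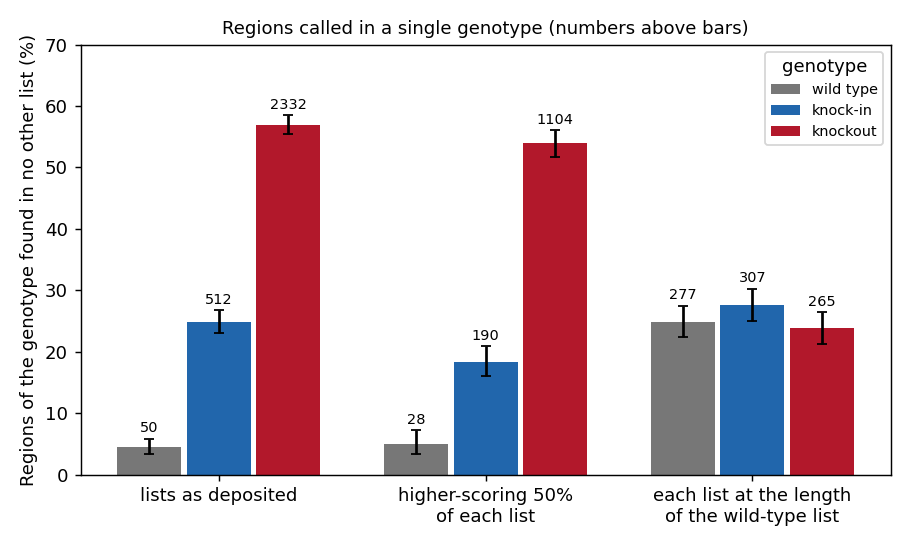
Share of each genotype's regions that were found in no other list (y axis, %), for the lists as deposited, for the higher-scoring 50% of each and for lists of equal length; bars are 1 library each, error bars exact 95% intervals, and numbers above the bars count regions. The knockout bar stands at 57.0% in the deposited lists and at 23.8% at equal length, where the 3 intervals overlap. In shortened lists a peak that was left out no longer counts as an overlap.

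Regions called in the knockout alone lay low in the score range of their own list. The score is the authors' value for each peak and is used here to rank peaks within a list. Their scores ran from 50.2, the lowest of the knockout list, to 284.92, with a median of 71.8 and quartiles of 60.8 and 90.8. In percentiles of the 4153 peaks of the whole knockout list, the median was 33.6 and the quartiles were 16.2 and 54.1. The highest-scoring region stood at percentile 95.5. For comparison, the median percentile was 61.1 for the 718 regions shared with the knock-in alone, 63.1 for the 232 shared with the wild type alone and 86.9 for the 812 found in all 3 genotypes. The choice of regions uses the same lists as these scores, so the order of the classes is a description. Of the 2332 regions, 475 (20.4%) had a score of at least 100, 88 (3.77%) of at least 150, 21 (0.901%) of at least 200 and 2 of at least 250. Over all 4094 knockout regions the shares were 41.9%, 20.7%, 11.7% and 6.91%, in that order.

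Across deciles of the knockout regions by score, the share called in the knockout alone was lower at every step up. In decile 1, the lowest, it was 89.0% (365 of 410 regions, exact interval 85.6 to 91.9), and in decile 5 it was 68.9% (64.2 to 73.4). It was 50.9% in decile 7 (45.9 to 55.8), 17.1% in decile 9 (13.6 to 21.1) and 2.93% in the highest (12 of 409 regions, 1.53 to 5.07). These shares are read against the 57.0% over all knockout regions. The classes that took its place differed with height: regions shared with the knock-in alone numbered 35 in decile 1, 117 in decile 8 and 39 in decile 10. Regions found in all 3 genotypes numbered 7 in the lowest decile and 342 in the highest.

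**Figure D2:**
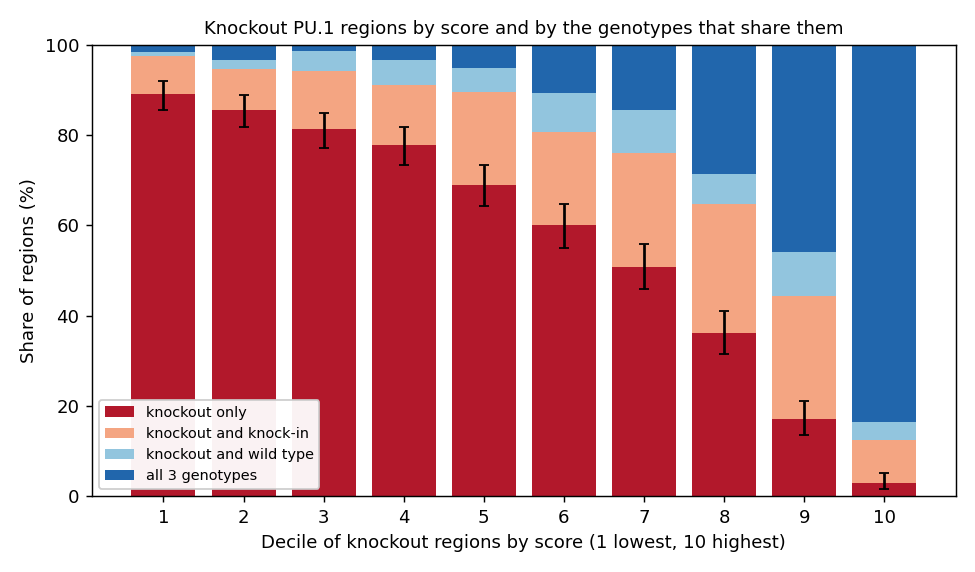
Knockout regions divided into deciles by the authors' score (x axis, 1 lowest) and, within each, the share (y axis, %) called in the knockout alone, also in the other genotypes singly, or in all 3; error bars are exact 95% intervals of the knockout-only share. The knockout-only share goes from 89.0% in the lowest decile to 2.93% in the highest.

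The scores turned out to hold whole-number counts of sequenced tags. A score of 59.49 recurred in 68 knockout, 72 knock-in and 36 wild-type peaks on chromosomes 1 to 19, and a score of 69.53 in 67, 28 and 27. These values equal minus 10 times the log10 of the upper tail of a Poisson distribution with mean 1, for more than 8 and more than 9 tags. With means taken from a short set (1.92 tags per kb of peak width, steps of 0.1 per kb from 2.0 to 4.0, or whole numbers from 1 to 5), 95.5% of knockout, 95.8% of knock-in and 97.3% of wild-type scores were matched within 0.006. Scores raised by 0.5 as a check matched in 2.39% to 2.74% of peaks. The rate of 1.92 tags per kb was sought separately in each list, within a narrow window just below 2.0, and was 1.9184 in each. The count given below is the whole number that the tail exceeds, and it would be 1 higher if the tail included it. No label states this relation, and the check of it was chosen after the scores were seen.

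A count could be recovered for 2209 of the 2332 regions (94.7%), and it was small in most of them. The median was 8 tags, with quartiles of 7 and 10 and a range from 6 to 29. Of these 2209 regions, 443 (20.1%) rested on 6 tags, the lowest count in the knockout list, and 571 (25.8%) on 7. In all, 59.9% had 8 tags or fewer. The same count of 8 or fewer held for 28.5% of the 685 regions shared with the knock-in alone and 5.65% of the 744 found in all 3 genotypes, among those with a recovered count. The median knockout count was 11 in each of the classes shared with 1 other genotype and 18 in regions of all 3.

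**Figure D3:**
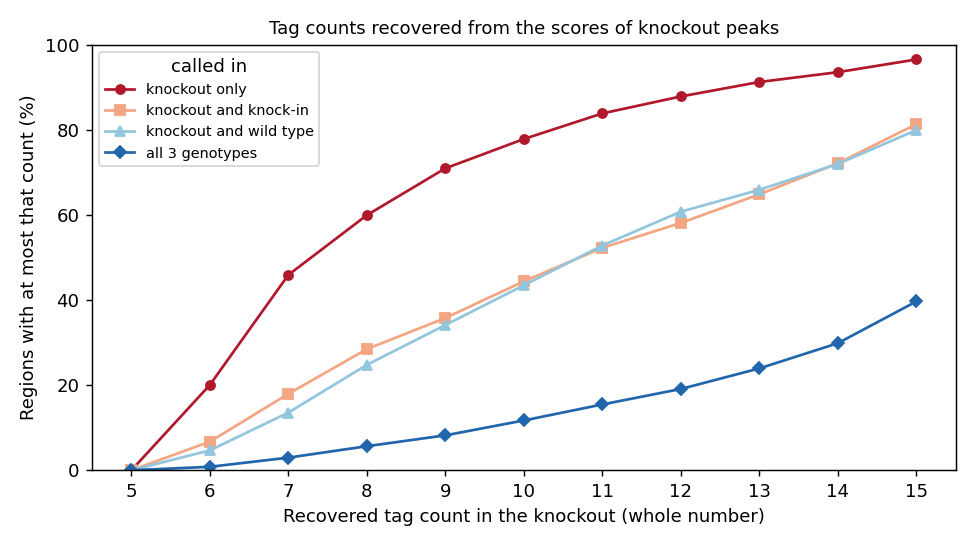
Cumulative share of knockout regions (y axis, %) with at most the tag count on the x axis, recovered from the score of the knockout peak, for regions called in the knockout alone and the 3 classes of shared region. At 8 tags the knockout-only curve is at 59.9% and the curve for all 3 genotypes at 5.65%.

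Tag counts at regions called in both of a pair of lists give the scale on which these small counts sit. At 927 regions called in the knockout and the wild type, the knockout count was a median of 1.75 times the wild-type count (quartiles 1.36 and 2.25), and it was the higher one in 90.4%. At 1358 regions called in the knockout and the knock-in, the median ratio was 1.5 (quartiles 1.13 and 1.88), with the knockout higher in 79.6%. The knock-in count was a median of 1.11 times the wild-type count at 733 regions (quartiles 0.889 and 1.4). These regions were called in both lists of the pair, which leaves out those where 1 count was too low to call. The lowest recovered count of a called peak was 5 tags for wild type and 6 for the knock-in. At the regions called in the knockout alone, no count is known for the other genotypes. Each count belongs to the peak of its own list, so the peak widths within a pair can differ, and the ratios were not adjusted for width. Library depth, peak width and PU.1 occupancy cannot be told apart in these ratios, and their part in the choice of the regions was not tested.

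The peaks of the 2332 regions were somewhat narrow, with a median of 283 bp (quartiles 236 and 330) and a range from 130 to 648 bp. The median was 305 bp in regions shared with the knock-in alone, 293.5 bp in those shared with the wild type alone and 337.5 bp in those of all 3 genotypes. Within each of the 10 score deciles the median was also below that of the shared regions, but the 95% intervals of the medians overlapped in all 10. In decile 1 by score the median was 301 bp for knockout-only and 302 bp for shared regions, and in decile 4 it was 257 and 262 bp. In decile 5 it was 270.5 bp (254 to 289) and 307 bp (282 to 323), and in decile 10 it was 318 bp (268 to 419) and 353 bp (343 to 362). The median did not change evenly with score: it was 266 bp in decile 2 and 296 bp in decile 3.

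Width and score were tied through the recovered tag counts. Among the 15 commonest scores of the knockout list, 7 occurred only in peaks of at most 222 bp (for example 77.35 in 61 peaks of 172 to 222 bp). The other 8 occurred only in wider ones (59.49 in peaks of 228 to 505 bp), and all 8 are the tails of a mean of 1 tag, for 8 to 15 tags. Such whole-number means give the same score at every width. Where the mean was a rate per kb, a peak wider than 222 bp scored less the wider it was at the same count, and below that width the score no longer depended on width. Where a count was recovered, the points for knockout-only and shared regions alike therefore fall on flat bands and on descending lines, each a single tag count. Peaks of at most 222 bp made up 18.5% of knockout-only regions (432, exact interval 17.0 to 20.2), against 9.76% of shared knockout regions (172 of 1762, 8.42 to 11.2). By class the share was 5.05% in regions of all 3 genotypes (3.65 to 6.79), 13.1% in those shared with the knock-in alone (10.7 to 15.8) and 15.9% in those shared with the wild type alone (11.5 to 21.3). The last of these intervals overlaps that of the knockout-only regions. Of the 604 narrow knockout regions 71.5% were called in the knockout alone (67.7 to 75.1), and of the 3490 wider ones 54.4% (52.8 to 56.1). The difference was not constant over the score: from 50 to below 75 the shares were 81.4% for narrow and 84.3% for wider regions, with overlapping intervals. From 100 to below 150 they were 58.2% (49.4 to 66.7) and 42.0% (38.4 to 45.6).

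**Figure D4:**
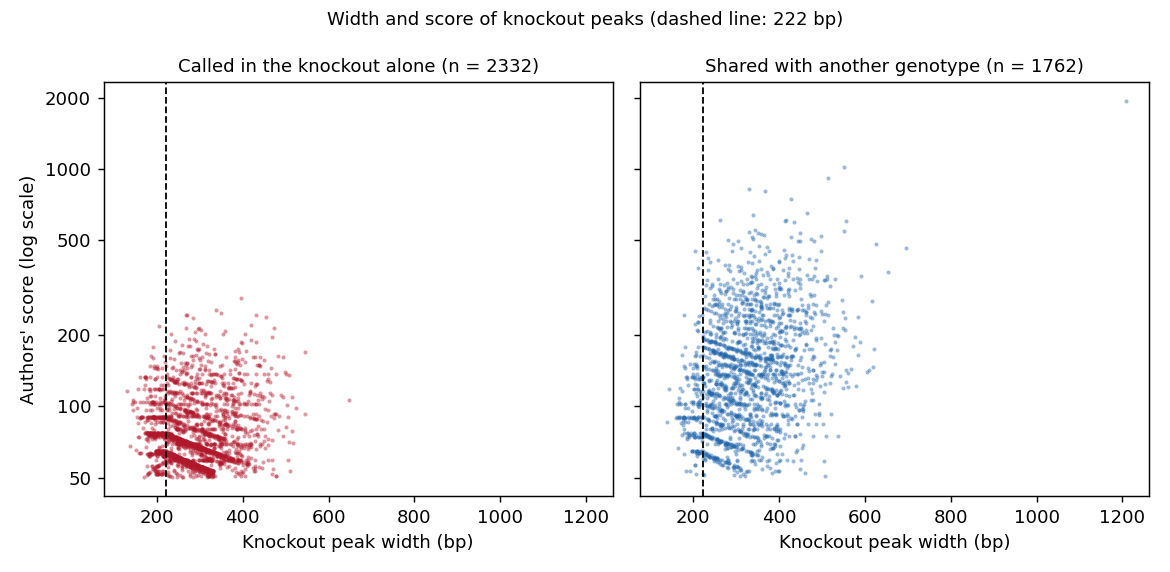
Authors' score (y axis, log scale) against the width of the knockout peak (x axis, bp) for the 2332 regions called in the knockout alone and the 1762 shared with another genotype; each point is 1 region and the dashed line marks 222 bp. Knockout-only points crowd onto a few flat or descending lines below a score of about 100. Such lines follow from the score formula, which holds for shared regions too.

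The recovered means also sort the peaks by the kind of mean that matched the score. No label states the background that was used in peak calling. In 913 of the 2209 regions (41.3%, exact interval 39.3 to 43.4) the mean was the rate of 1.92 per kb common to the lists. In 969 (43.9%) it was a higher local rate, and in 327 (14.8%, 13.3 to 16.4) a whole number. In regions of all 3 genotypes the common rate applied to 30.9% of knockout peaks (27.6 to 34.4) and a whole number to 25.5% (22.4 to 28.8). Knockout peaks of regions shared with the wild type alone were close to the knockout-only ones, with the common rate in 41.6% (34.9 to 48.5) and a whole number in 13.1% (8.87 to 18.4). Knockout-only regions matched with a whole-number mean had a median of 11 tags, compared with 7 for those matched with the common rate. At most peak widths the whole number is the higher mean, and a higher mean needs more tags to reach the lowest listed score. This difference thus follows at least in part from the formula.

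The 10 knockout-only regions with the highest scores are given next, with the tag count of the 8 that had one. The count is read from the score, so a high count goes with this choice. The highest-scoring lay at chr10:94190850-94191245 (mm9, as for all peaks here), with a score of 284.92 and 24 tags. Its nearest peak of another list was a wild-type peak 130.1 kb away. The second, at chr4:107036668-107037004, scored 254.86 and lay 839.5 kb from a knock-in peak, but only 3.33 kb from another knockout-only region. The third, at chr19:37598251-37598599, scored 247.76 with 21 tags. The fourth, at chr2:116815753-116816183, had the most tags of any knockout-only region with a recovered count, at 29, and scored 242.32. It was also the one of these 10 with another list's peak within 20 kb, a knock-in peak 726 bp away. Score and count thus do not give the same order.

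Regions of ranks 5 to 10 had scores from 218.32 to 242.09. Ranks 5 to 7 were held by chr10:11043440-11043707 with 23 tags, chr6:127112911-127113180 with 23 and chr5:111111028-111111481 with 22. Ranks 8 to 10 were at chr18:69635450-69635734 with 19 tags, at chr3:132755864-132756282 with 23 and at chr18:34299644-34299848, without a recovered count. The region on chromosome 3 was 2.1 Mb from the nearest wild-type or knock-in peak and the second one on chromosome 18 was 1.7 Mb away. High scores were thus found both beside and far from peaks of the other lists.

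Every autosome carried at least 1 knockout-only region above percentile 80 of the knockout list. The highest per chromosome scored from 155.2 on chromosome 16 to 284.92 on chromosome 10, with a median of 211.59. For chromosomes 1, 7 and 8 these were chr1:175907769-175908057 (17 tags), chr7:97168169-97168480 (20 tags) and chr8:124788228-124788467 (13 tags). For chromosomes 9 and 11 these were chr9:71799082-71799554 and chr11:29586125-29586482, with 26 tags each. The chromosome 7 region was 3.18 kb from a knock-in peak, and the others of these 5 were 112.5 to 536.8 kb from any peak of the other lists. The highest of chromosomes 12 to 14 were chr12:3429787-3430038 (14 tags), chr13:23654232-23654465 (20 tags) and chr14:58391298-58391593 (20 tags). Those of chromosomes 15 to 17 were chr15:63834721-63835028 (16 tags), chr16:24076681-24077061 (15 tags) and chr17:46090509-46090783 (16 tags). These 6 lay 42.3 to 192.1 kb from the nearest wild-type or knock-in peak. The highest regions of the remaining chromosomes are among those already named.

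At the other end, the lowest scores were 50.2 at chr4:8627405-8627640 (6 tags), 50.22 at chr7:63217008-63217290 (6 tags) and 50.27 at chr10:7571763-7572009 (7 tags). The widest region, at chr10:5744325-5744972, spanned 648 bp with 15 tags. The next widest spanned 518 to 545 bp and lay at chr7:52890572-52891116, chr3:122075512-122076056, chr6:134170193-134170715 and chr2:17317821-17318338. The narrowest were 130 bp at chr1:58940242-58940371, 137 bp at chr1:92942995-92943131 and 143 bp at chr15:83052285-83052427. The narrowest of all had a score of 116.56 with 10 tags, above the 106.29 of the widest with its 15 tags.

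Most regions called in the knockout alone were far from any peak of the other lists. The median gap to the nearest wild-type or knock-in peak was 178.1 kb. Within 500 bp lay 21 of the 2332 regions (0.901%, exact interval 0.558 to 1.37), within 10 kb 177 (7.59%, 6.55 to 8.74), within 100 kb 860 (36.9%, 34.9 to 38.9) and within 1000 kb 2099 (90.0%). The nearest peak was a knock-in peak for 68.7% of regions, and knock-in peaks made up 64.9% of the peaks searched. Taken alone, the wild-type list had a peak within 10 kb of 97 regions (4.16%) and the knock-in list of 154 (6.60%). In tertiles of the regions from low to high score, 7.97%, 6.56% and 8.24% lay within 10 kb, with overlapping intervals. The median score percentile was 48.5 for the 21 regions within 500 bp and 28.6 for the 233 beyond 1 Mb, against 33.6 for all.

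The same regions moved along their chromosomes by fixed distances were less often close to another list's peak. After moves of 100 kb to either side, 3.77% and 4.59% lay within 10 kb of a wild-type or knock-in peak. After moves of 1 Mb the shares were 2.87% and 1.89%, and after moves of 5 Mb 2.06% and 1.72%. Within 500 bp the 6 moves gave from 0 to 9 regions, against 21 in place, although moved regions could overlap a peak and the regions in place by their definition could not. Within 100 kb, 36.9% lay in place, against 31.5% and 34.1% after moves of 100 kb, a move as long as the distance searched. The moves of 1 Mb and 5 Mb gave 15.3% to 18.2% within 100 kb. The moved positions take no account of sequence that is rarely or often called, and no test was made of the difference.

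**Figure D5:**
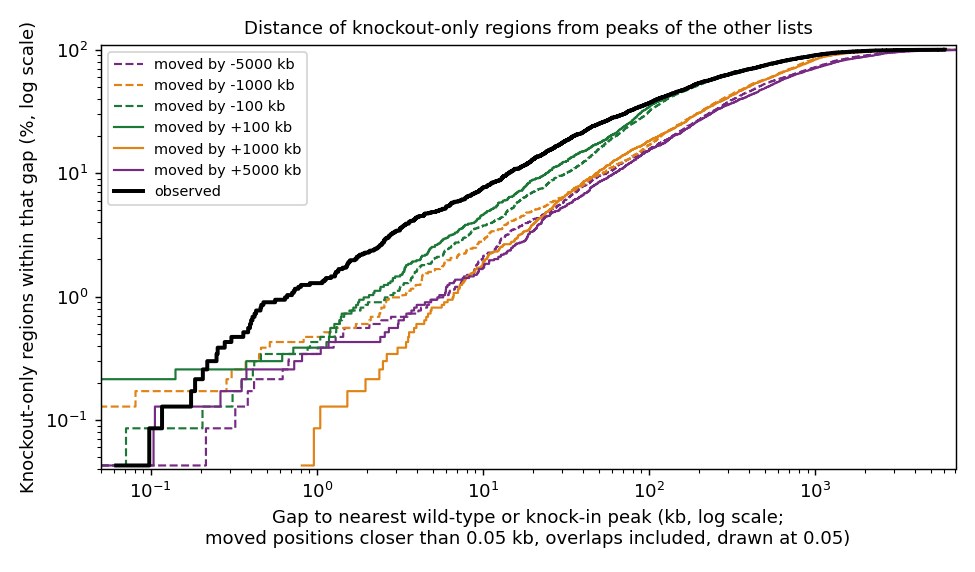
Share of the 2332 knockout-only regions (y axis, %, log scale) with a wild-type or knock-in peak within the gap on the x axis (kb, log scale), in place (black) and after moves of 100, 1000 and 5000 kb to either side (coloured). At 10 kb the black line is at 7.59% and the moved lines are between 1.72% and 4.59%.

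Shared knockout regions also had further wild-type or knock-in peaks nearby, beyond the ones they overlapped. Such a peak lay within 10 kb of 9.85% of regions in all 3 genotypes (exact interval 7.89 to 12.1), 8.08% of those shared with the knock-in alone (6.19 to 10.3) and 13.4% of those shared with the wild type alone (9.26 to 18.4). The interval of the last lies above that of the knockout-only regions, and the first 2 overlap it.

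A small number of regions lay just beside a peak of another list. The smallest gap between a knockout-only region and another list's peak was 62 bp, at chr17:88512414-88512628 (score 64.59, 6 tags). The next were 98 bp at chr9:89954772-89955135, 117 bp at chr6:129300031-129300471, 175 bp at chr14:70457250-70457529 and 185 bp at chr7:52494060-52494412. In all 5 the neighbour was a knock-in peak. Just outside the rule, the knockout peak with the smallest overlap was chr5:88990333-88990499 (score 90.62), which shared 102 bp with a wild-type peak. The knockout peak chr10:66947148-66947454 (score 78.59) shared 109 bp with a knock-in peak, and chr5:122735730-122735957 (score 63.82) shared 121 bp with a wild-type peak. Next were chr10:37041123-37041290 (score 108.37), with 129 bp under a knock-in peak, and chr11:85931054-85931297 (score 114.13), with 131 bp under a wild-type peak. The median overlap of the 1762 shared knockout peaks was 266 bp. No knockout peak had a largest overlap below 100 bp. Of the 21 regions within 500 bp of another list's peak, 19 had a knock-in peak that close, 8 a wild-type peak and 6 both.

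Knockout-only regions also lay near each other. Within 10 kb of another such region were 153 (6.56%, exact interval 5.59 to 7.64), against 1.89% to 4.33% when the regions were moved by the same 6 distances. Shared knockout regions had a knockout-only region within 10 kb about as often, in 7.80% of those shared with the knock-in alone (5.95 to 10.0), 8.62% of those shared with the wild type alone (5.35 to 13.0) and 8.37% of those in all 3 (6.56 to 10.5). These intervals overlap that of the knockout-only regions. The 153 formed 72 pairs and 3 groups of 3. The group at chr8:91150338-91161777 had scores of 97.81, 67.12 and 103.05, that at chr12:104571055-104581966 had 111.97, 63.7 and 66.93, and that at chr15:66648636-66657244 had 64.06, 118.48 and 77.94. None of the 3 groups had a wild-type, knock-in or further knockout peak within 20 kb. The nearest such peak of another genotype was 24.5, 878.8 and 31.3 kb away, in that order. The regions farthest from any other list's peak were 3 on chromosome 7, chr7:63039905-63040223 at 6.04 Mb (score 156, 18 tags), chr7:63217008-63217290 at 5.86 Mb and chr7:62162666-62163073 at 5.44 Mb. The last 2 scored 50.22 and 57.57, near the lowest score of the class, 50.2.

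On a coarser scale, 1439 of 2469 windows of 1 Mb held a knockout region of any class. At least 1 knockout-only region lay in 1191 windows, and 62 held 5 or more. The windows named here were picked after their counts were seen. The fullest, on chromosome 10 from 94 to 95 Mb, held 15 knockout regions, of which 9 were knockout-only, beside 5 knock-in and 3 wild-type peaks. Among the 9 was the highest-scoring region of all. The scores of the 9 ran from 61.87 to 284.92, with a median of 108.99. A window on chromosome 9 from 77 to 78 Mb held 7 knockout regions and no peak of another genotype. The scores of these 7 ran from 51.9 to 168.51, the highest at chr9:77375053-77375312, and their gaps to the nearest other list's peak from 292.2 to 903 kb. On chromosome 17 from 5 to 6 Mb, 7 knockout regions were all knockout-only too, with scores from 54.44 to 73.54, in a window that held 1 wild-type and 1 knock-in peak. The first of these windows thus mixed shared and unshared sites, while in the other 2 no knockout peak was shared.

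Knockout-only regions were spread over all autosomes at 0.949 per Mb up to the last called position. The density ran from 0.608 per Mb on chromosome 14 to 1.34 per Mb on chromosome 11, followed by 1.26 on chromosome 19 and 1.22 on chromosome 6. The density of all knockout regions was likewise lowest on chromosome 14 (1.10 per Mb) and highest on chromosomes 11 (2.38) and 19 (2.32). The share of knockout regions that were knockout-only ran from 50.3% on chromosome 16 (87 of 173) to 66.2% on chromosome 6 (182 of 275, exact interval 60.3 to 71.8). For 18 of the 19 chromosomes the interval held the 57.0% of all autosomes, and chromosome 6 was the exception. The intervals were not adjusted for looking at 19 chromosomes, and whether chromosome 6 differs was not tested. Among the higher-scoring 50% of knockout regions, 49 of 113 on chromosome 6 were knockout-only (43.4%, 34.1 to 53.0), against 33.4% over all autosomes (31.4 to 35.5). In the lower-scoring 50% the values were 82.1% (75.3 to 87.7) and 80.5% (78.7 to 82.2). The intervals of chromosome 6 and of all autosomes overlapped in both score classes. Which genes the regions lie in was not analysed here.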

How the data were processed

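PU.1 ChIP-seq peak lists of 3 genotypes, 1 library each, were used. Per the submitters' processing notes, the authors used Trim Galore, Bowtie and MACS with build mm9. Versions, settings and the control were not given in the sources used here. Deposited lists give chromosome, start, end, name and a score without a stated definition. Each sample has a list of its own. Positions are counted from 1, by adding 1 to each start.

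Peaks of all lists on chromosomes 1 to 19 that overlapped by at least 1 bp were joined, and regions with a knockout peak alone were kept. Percentiles are the share of the 4153 deposited knockout scores at or below a score. Gaps are bases between peak edges. Moved regions were wrapped at the last called position. Shares have exact (Clopper-Pearson) 95% intervals. Tag counts were recovered by matching scores to Poisson tails, and a count was kept where 1 whole number matched. Functions were tested on simulated data. Tools were matplotlib 3.10.9, scipy 1.17.1, pandas 2.3.3 and numpy 2.4.6 under Python 3.11.15.

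The regions named were the 10 with the highest score, the highest on each chromosome, the 5 widest, 3 narrowest, 5 with the smallest gap, 5 shared with the smallest overlap, 3 farthest, 3 lowest-scoring and groups of 3 or more within 10 kb. The members, lists and rules were chosen with earlier results of these data known. No mm9 annotation or sequence was used, so genes and motifs were not analysed here. The depth of each library is unknown, and the recovered counts cover called peaks only.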

Additional observations from a re-analysis of the deposited data

Results flagged for a closer look

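Chromosome X, outside the autosomes described above, held 35 regions called in the knockout alone. These data are outside the main comparison. The 35 were 61.4% of the 57 knockout regions on X (exact 95% interval 47.6 to 74.0), an interval that holds the 57.0% of the autosomes. Their median score was 71.76 and the highest 149.61. Neither of the 2 knockout regions on chromosome Y was knockout-only.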

How the results depend on the processing

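The 55 values computed under alternatives left 32 within the reported value's interval (counts: within 1.5 times) and 23 outside it. One alternative, which shortened the knockout list alone, was chosen after seeing the data. A reciprocal overlap of 50% gave 2387 regions and moved the share within 10 kb of another list's peak to 9.72%. Joining peaks up to 1000 bp apart moved this share to 6.25% and the share within 10 kb of another knockout-only region to 5.47%. With the higher-scoring 50% of each list there were 1104 knockout-only regions, 53.9% of knockout regions, with a median width of 295 bp, and 4.08% and 4.89% within 10 kb of another list's peak and of each other. Lists of equal length gave 265 regions (23.8%), a median percentile of 28.1, a median width of 318 bp, 5.66% near another list's peak, 1.51% near each other and 0.901% of the highest decile. The knockout list alone held to 1114 peaks gave 172 (15.4%), percentile 25.4, 305 bp, 1.16% near each other and 0% of the highest decile (exact upper limit 3.27%). In this last setting the other lists kept all their peaks, and 7.56% lay within 10 kb of one. All 172 were among the 2332, as were 684 of the 1104 and 172 of the 265. Searching the wild-type list alone gave 74.5% and the knock-in list alone 62.6%. All regions with sex chromosomes numbered 2367. No paired analysis was possible because the study has 1 library for each genotype, which also leaves no replicate to omit. At any knockout count, from the lowest of 6 tags upward, a region cannot show that its site is unbound in the other genotypes. It shows only that no peak was called there.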

Other observations

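The width under which a score no longer depended on width differed between lists, with 178 bp for wild type, 222 bp for knockout and 244 bp for knock-in. The common rate, sought in the same narrow window for each list, was 1.92 tags per kb in each. The median recovered count of knock-in-only regions was 6 tags (484 of 512 with a count), and that of wild-type-only regions was also 6 (49 of 50), against 8 for knockout-only regions. The highest recovered counts were 145 tags for knockout, 90 for knock-in and 76 for wild type.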
